A study of Mus musculus with 12 samples.

Results

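The 45 genes described here encode the proteins that copy DNA: those that mark origins, load and start the helicase, build and join the new strands, and supply nucleotides. They were chosen by name, as 45 of 18194 named genes on the array, and each was read from the probe set with its highest mean. A level is log2(intensity + 1) throughout. All 45 reached a level of at least 5 on at least 2 of the 12 arrays, as did 9930 named genes in all, which formed the tested set.

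Transcripts were measured in whole ICR mouse embryos on Affymetrix 430 2.0 arrays, with 2 arrays in each of 6 groups. The control groups were undisturbed embryos of 2 cells at day 1.5, of 4 to 8 cells at day 2.5, and of the morula to blastocyst stage at day 3.5. The treated group was taken at day 2.5, arrested at 4 cells by 20 µM U0126, which inhibits the kinases that activate ERK, and the released groups had resumed division after that arrest and were taken at day 3.5 (8 cells) and day 4.5 (morula to blastocyst). All groups had the same strain and the same RNA input, 0.1 µg amplified before labelling, so a level is a share of the RNA and not an amount per cell. The series' text gives 2 independent experiments, while no label ties the arrays of a group to separate cultures or animals. The p-values hence measure only how these samples spread, and that spread may be technical.

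Within groups, r between arrays was 0.955 to 0.980 over the tested genes, and the lowest r between any 2 arrays was 0.516. All 7 measured preimplantation embryo markers reached a level of 5 on at least 2 arrays, and their summed level was 10.14 and 10.57 at day 1.5, 12.11 and 12.80 in day 2.5 controls, 14.07 and 14.86 in day 3.5 controls, and 15.17 and 15.45 in released day 4.5 embryos. Of the 7, Zp3 alone was lower in released day 4.5 embryos than at day 1.5, with means of 3.88 and 9.34. The highest in released day 4.5 embryos was Krt8, at 14.42 against 3.80 at day 1.5. None of 9 cumulus and granulosa markers and none of 8 sperm markers reached a level of 5 on any array. Of 7 oviduct markers 2 did, Ovgp1 and Sox17, the second with a mean of 7.43 in released day 4.5 embryos, and of 7 blood and immune markers 1 did, Cd68, with a mean of 6.90 under U0126. In bulk embryos, fewer cells of a type and less RNA per cell cannot be told apart.

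Replication starts when the origin recognition complex, Cdc6 and Cdt1 load the ring of Mcm2 to Mcm7 onto DNA, a step that geminin (Gmnn) blocks by holding Cdt1. Cdc45 and the GINS complex then turn the ring into an active helicase, and polymerase alpha and its primase lay primers. Polymerases delta and epsilon extend the primers together with the sliding clamp Pcna, which replication factor C places on DNA. Early mouse embryos divide with little growth, first on stored maternal transcripts and then, from the 2-cell stage, on their own. Transcription factors of the E2F family are known to drive many of these genes before S phase.

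A gene was called changed where the Benjamini-Hochberg adjusted p of limma's moderated test over all 9930 genes was under 0.05, and errors are standard errors of the fit. From day 1.5 to day 2.5 of undisturbed development, 17 of the 45 genes rose, 8 fell and 20 did not pass. Over all tested genes 28% rose and 27.4% fell at this step. The median difference of the 45 genes was 0.62 on the log2 scale, against 0.09 over all tested genes. In every called gene of every comparison the arrays of the groups compared did not overlap. With 2 arrays a group a call nearly requires this, so it is no further support. The largest rises were in Pold1, Rfc4, Rfc3, Lig1 and Orc3, and the largest falls in Gins2, Orc5 and Orc2. At the next step, to day 3.5, 6 genes rose and 1 fell, while 13.4% of all tested genes rose and 8.28% fell. Over the whole span from day 1.5 to day 3.5, 22 rose and 6 fell, against 35.1% and 28.9% of all tested genes, and the medians were 0.87 and 0.20. Of the 45 genes, 26 (57.8%) had their lowest group mean at day 1.5, as had 37.5% of all tested genes.

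**Figure D1:**
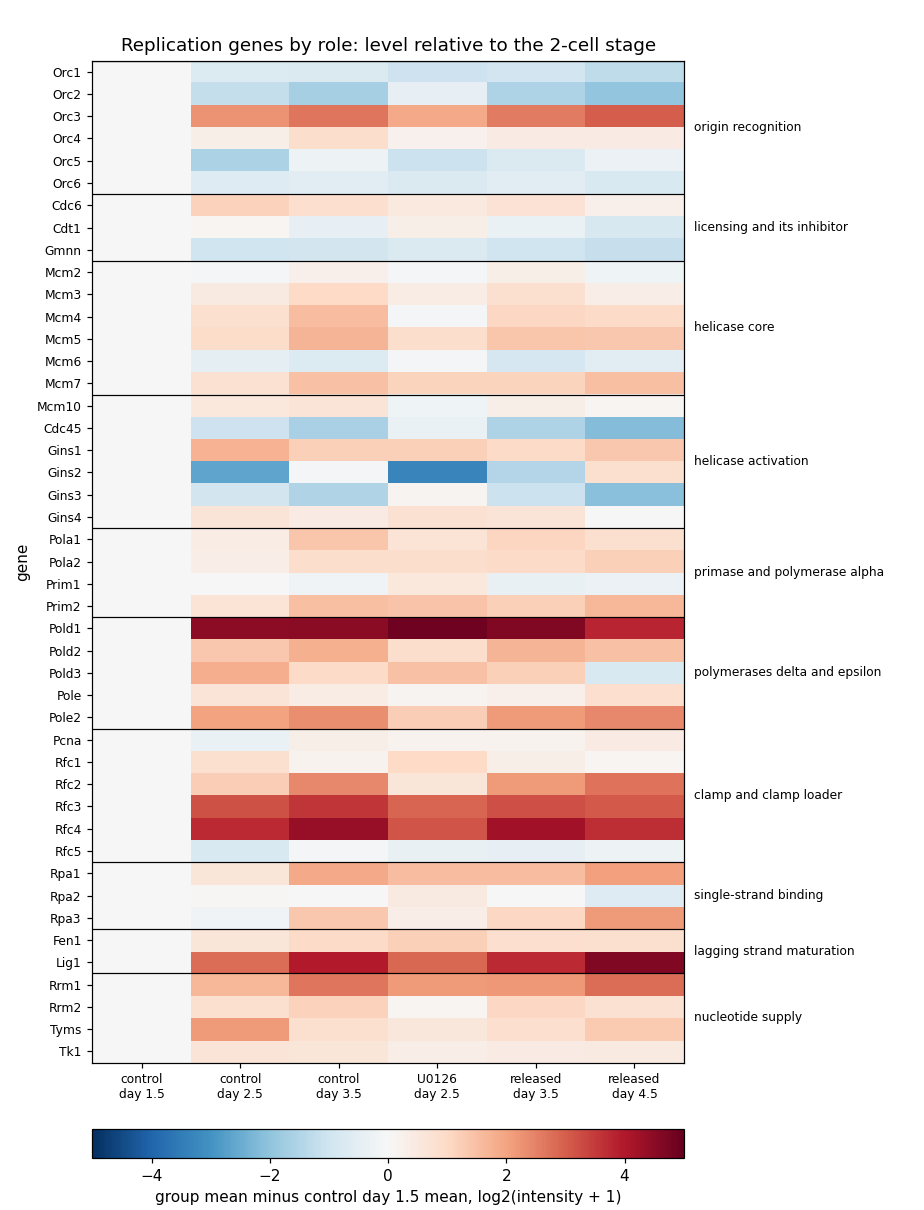
Mean level of each of the 45 genes in the 6 groups, as the difference from its mean in day 1.5 controls on the log2(intensity + 1) scale (colour), with genes ordered by role. Pold1, Rfc3, Rfc4 and Lig1 are red in every later group, while subunits of the origin recognition complex, of the MCM ring and of GINS lie on both sides of 0.

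The promoters of the members were read from RefSeq windows of assembly GRCm38.p6, 250 bases before to 50 bases after the start, which were found for 37 of the 45 genes, all but Mcm4, Gmnn, Gins1, Gins2, Gins4, Prim2, Pole and Rfc2. The windows were searched on both strands for the E2F letters TTTCCCGC, TTTGGCGC, TTTCGCGC and TTTGCCGC and for CCAAT, and matches were allowed to overlap. An E2F match was found in 15 of the 37 (40.5%) and in 2.61% of 27025 genes with a window. CCAAT was found in 23 of the 37 (62.2%) and in 41.1% of the genes with a window. Among the 15 with an E2F match, 9 rose from day 1.5 to day 2.5, 2 fell and 4 did not pass; among the 22 without one, 5 rose, 4 fell and 13 did not pass. Among the 23 with CCAAT, 6 rose, 5 fell and 12 did not pass, and among the 14 without it, 8 rose, 1 fell and 5 did not pass. None of these splits was tested. A match is a run of letters and not a measured binding site.

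The stretches below show that E2F letters stood upstream of genes that moved in opposite directions. Mcm5 and Mcm6 are subunits of 1 ring, of which Mcm5 rose and Mcm6 was lower in day 3.5 than in day 1.5 controls; Orc3 and Rfc3 rose and Gins3 fell. Each runs 5′ to 3′ on the gene's strand and ends at the base before the gene's annotated span in GRCm38.p6, so it lies upstream of the gene it is named for. Capitals mark E2F and CCAAT matches on either strand, and overlapping matches run together.
Mcm5, plus strand, chr8:75109349-75109467: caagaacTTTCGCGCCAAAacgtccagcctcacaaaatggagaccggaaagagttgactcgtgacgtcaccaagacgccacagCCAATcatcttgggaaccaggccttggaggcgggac
Mcm6, minus strand, chr1:128359706-128359865: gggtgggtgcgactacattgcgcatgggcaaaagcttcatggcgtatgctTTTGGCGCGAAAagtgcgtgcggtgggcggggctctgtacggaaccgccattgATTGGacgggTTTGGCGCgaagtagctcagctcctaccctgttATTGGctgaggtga
Orc3, minus strand, chr4:34614964-34615102: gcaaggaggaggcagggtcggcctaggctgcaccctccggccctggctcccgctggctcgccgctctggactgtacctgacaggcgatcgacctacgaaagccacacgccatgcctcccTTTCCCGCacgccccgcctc
Rfc3, minus strand, chr5:151651209-151651368: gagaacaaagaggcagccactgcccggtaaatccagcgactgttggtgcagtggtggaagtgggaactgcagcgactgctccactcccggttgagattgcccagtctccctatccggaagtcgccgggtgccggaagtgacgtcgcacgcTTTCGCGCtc
Gins3, plus strand, chr8:95633399-95633558: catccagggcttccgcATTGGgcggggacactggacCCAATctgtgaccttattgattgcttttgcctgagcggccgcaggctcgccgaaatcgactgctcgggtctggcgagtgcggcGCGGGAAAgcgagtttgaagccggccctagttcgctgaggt
Mcm5 held 2 overlapping E2F matches and 1 CCAAT in this stretch, Mcm6 held 3 and 2, Gins3 held 1 and 2, and Orc3 and Rfc3 held 1 E2F match each and no CCAAT. Among these 5 genes, shown as examples, both risers and fallers held E2F matches. As chosen examples they do not show how often risers and fallers hold a match. Among all 15 members with an E2F match, 9 rose and 2 fell at the first step, at which Mcm6 did not pass. The stretches leave out part of each window, so their CCAAT counts do not set risers apart from fallers. Outside its stretch, Mcm5 also held CCAAT with first bases at -22 and 7 from the start, and Rfc3 at -229.

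In the origin recognition complex, the platform on which the helicase is loaded, 1 subunit rose and 4 fell from day 1.5 to day 2.5. The level of Orc3 was 5.15 and 5.38 on the arrays of day 1.5, 7.59 and 7.40 at day 2.5, and 8.04 and 7.83 at day 3.5. Orc3 rose by 2.23 ± 0.28 (4.69-fold; adjusted p = 6.42e-05), and every later array lay above both of day 1.5. Orc2 went the other way, with 10.28 and 10.16 at day 1.5, 8.82 and 9.22 at day 2.5, and 8.55 and 8.56 at day 3.5. It fell by 1.20 ± 0.24 at the first step (adjusted p = 0.00148) and by 1.66 ± 0.24 over the span (adjusted p = 0.000136). Its other probe sets differed less, by -0.35 and -0.46 at the first step and by -0.28 and -0.95 over the span. Orc5 fell by 1.58 ± 0.38, from 9.87 and 10.74 to 8.92 and 8.54 (adjusted p = 0.00451), and then rose by 1.33 ± 0.38 to 10.27 and 9.85 at day 3.5 (adjusted p = 0.0301). Orc1 fell by 0.70 ± 0.27 (adjusted p = 0.0485) and Orc6 by 0.63 ± 0.23 (adjusted p = 0.0395). Orc4 was called over the whole span alone, 0.88 ± 0.29 higher at day 3.5 (adjusted p = 0.0209), but its 3 other probe sets differed by -0.26 to -1.51 there, so its direction depends on the probe set. The calls of Orc2, Orc3 and Orc5 at the first step held with any 1 array left out. Those of Orc1 and Orc6 ended without replicate 1 or 2 of control day 1.5 or replicate 1 or 2 of control day 2.5, with adjusted p of 0.120, 0.101, 0.100 and 0.180 for Orc1 and 0.0904, 0.0755, 0.194 and 0.0671 for Orc6. The later rise of Orc5 ended without replicate 1 or 2 of control day 2.5 or replicate 1 or 2 of control day 3.5 (adjusted p 0.0710, 0.155, 0.195 and 0.0567), and with no filter on low levels (0.0638). Over the span the call of Orc1 (-0.74; adjusted p = 0.0354) ended without replicate 1 or 2 of control day 1.5 or of control day 3.5 (0.0952, 0.0773, 0.136 and 0.0774) and with the mean of its probe sets (0.133). That of Orc4 ended without replicate 2 of control day 1.5 (0.0944) or replicate 1 of control day 3.5 (0.115), with centred arrays (0.0679), and with the mean of its probe sets, where it turned to -0.60 (0.0758). Orc6 was also called over the span with the replicate number as a block (-0.56; adjusted p = 0.0282). Both first-step calls of Orc1 and Orc6 also ended when arrays were centred on their medians (adjusted p 0.0654 and 0.0859) or quantile-normalized (0.0887 and 0.0722), and that of Orc1 with the trend setting (0.0618) or the mean of its probe sets (0.113).

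Of the licensing factors, Cdc6, which brings the helicase to the origin complex, rose and geminin, the inhibitor of Cdt1, fell. Geminin stood at 13.05 on both arrays of day 1.5, at 11.93 and 12.17 at day 2.5, and at 12.14 on both arrays of day 3.5. It fell by 1.0 ± 0.26 at the first step (2.0-fold; adjusted p = 0.00767) and was then level within the spread, at -0.91 ± 0.26 over the span (adjusted p = 0.0107). Cdc6 rose from 10.32 and 9.49 to 11.01 and 11.14, by 1.17 ± 0.30 (adjusted p = 0.0073), and stood at 10.60 and 10.87 at day 3.5, 0.83 ± 0.30 above day 1.5 (adjusted p = 0.034). Cdt1, which delivers the MCM ring, did not pass at either step and lay between 12.10 and 12.90 on the control arrays. The first-step call of Cdc6 ended without replicate 2 of control day 1.5 (adjusted p = 0.0591) and that of geminin without replicate 1 of control day 2.5 (0.0584). Over the span Cdc6 ended without replicate 2 of control day 1.5 (0.42; adjusted p = 0.248), replicate 1 of control day 3.5 (0.0602) or replicate 2 of control day 3.5 (0.154), and when arrays were centred (0.093).

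The MCM ring, the core of the helicase, has 6 subunits in equal number, and its transcripts did not move together. Mcm4, Mcm5 and Mcm7 rose at the first step, by 0.80 ± 0.28, 0.92 ± 0.25 and 0.75 ± 0.27 (adjusted p 0.0329, 0.00998 and 0.0354), while Mcm2, Mcm3 and Mcm6 did not pass. Over the whole span the same 3 subunits were 1.53, 1.70 and 1.45 higher (adjusted p 0.000756, 0.000181 and 0.000832). Mcm5 stood at 10.81 and 11.21 at day 1.5, 11.78 and 12.09 at day 2.5, and 12.71 and 12.70 at day 3.5, so that the 3 stages did not overlap. Mcm6 stood at 11.95 and 11.67, then 11.45 and 11.23, then 11.25 and 10.97. It was 0.70 ± 0.25 lower at day 3.5 than at day 1.5 (-0.70; adjusted p = 0.0289), and its other probe set differed by -0.53. Mcm3 was higher on replicate 1 than on replicate 2 in each of the 3 stages (9.65 and 8.58, 10.05 and 9.10, 10.40 and 9.85). With the replicate number as a block it was called over the span (1.01; adjusted p = 0.00323), and Mcm4, Mcm5 and Mcm7 were also called at the second step (0.73, 0.78 and 0.69; adjusted p 0.0284, 0.024 and 0.0262). First-step calls ended as follows: Mcm4 without replicate 1 or 2 of control day 1.5 or replicate 2 of control day 2.5 (0.0893, 0.0809 and 0.220), Mcm5 without replicate 1 of control day 1.5 or replicate 2 of control day 2.5 (0.0577 and 0.0772), and Mcm7 without replicate 2 of control day 1.5 or replicate 1 or 2 of control day 2.5 (0.134, 0.169 and 0.0652). The first-step call of Mcm5 also ended with the mean of its probe sets (0.0725). The span call of Mcm6 ended without replicate 1 of control day 1.5 (0.117) or replicate 2 of control day 3.5 (0.153), under quantile normalization (0.0528) and with the mean of its probe sets (0.0506).

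The factors that switch the ring on, Cdc45 and the 4 GINS subunits, moved in both directions. Gins2 stood at 6.96 and 6.59 at day 1.5, at 4.24 and 4.01 at day 2.5, and at 7.20 and 6.17 at day 3.5. It fell by 2.65 ± 0.35 (adjusted p = 9.62e-05) and then rose by 2.56 ± 0.35 (adjusted p = 0.00117), and both day 2.5 arrays lay below a level of 5, near background. Measured against a level of 5, the fall was at least 1.78 (-1.78) and the rise at least 1.68. Its other probe set gave -3.18 at the first step. Gins1 rose from 8.81 and 8.13 to 10.07 and 10.40, by 1.76 ± 0.29 (adjusted p = 0.000444), and stayed 1.17 ± 0.29 above day 1.5 at day 3.5 (adjusted p = 0.00475). Gins3 fell from 8.94 and 9.23 to 8.07 and 8.29 and then stood at 7.35 and 7.83, which was 0.90 ± 0.28 lower at day 2.5 (-0.90; adjusted p = 0.0195) and 1.49 ± 0.28 lower at day 3.5 (-1.49; adjusted p = 0.00092). Cdc45 followed the same order, with 9.62 and 8.88, then 8.35 and 8.04, then 7.72 and 7.51, and fell by 1.05 ± 0.33 and, over the span, by 1.64 ± 0.33 (adjusted p 0.0179 and 0.00126). Gins4 did not pass (0.66 ± 0.28; adjusted p = 0.0635), nor did Mcm10, which bridges the helicase and polymerase alpha (0.53 at the first step). Gins4 was called at the first step and Mcm10 over the span with the replicate number as a block (adjusted p 0.0405, and 0.63 with 0.0275). The first-step calls of Gins1 and Gins2 held with any 1 array left out, and so did those of Cdc45, Gins1 and Gins3 over the span. At the first step Cdc45 ended without replicate 1 of control day 1.5 (-0.68; adjusted p = 0.133) or replicate 2 of control day 2.5 (0.104), and Gins3 without replicate 2 of control day 1.5 (0.0951) or replicate 1 of control day 2.5 (0.107) and under quantile normalization (0.0613).

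**Figure D2:**
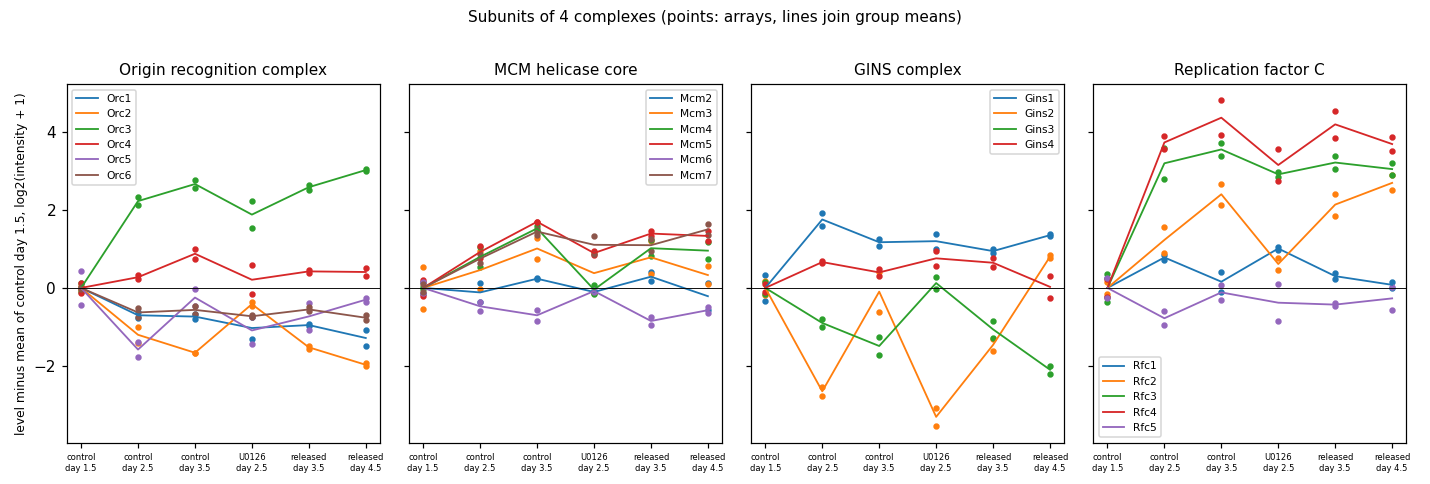
Levels of the subunits of 4 complexes as differences from the mean of day 1.5 controls (vertical axis, log2(intensity + 1)) in the 6 groups (horizontal axis), with a point for each array and lines joining group means in the order printed. Orc3 lies above and Orc2 below 0 in all later groups, Gins2 is lowest at day 2.5 with and without U0126, and Rfc3 and Rfc4 stand about 3 to 4 above day 1.5.

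None of the 4 subunits of polymerase alpha and primase, which start each new strand, was called at the first step. Over the span Prim2 was higher by 1.52 ± 0.29 (adjusted p = 0.00102), from 7.37 and 7.0 at day 1.5 to 8.86 and 8.55 at day 3.5, and Pola1 by 1.39 ± 0.41 (adjusted p = 0.0117). Prim1 and Pola2 did not pass, at -0.18 and 0.87. The call of Pola1 ended without replicate 1 of control day 1.5 (adjusted p = 0.0771). Prim2 was called at both single steps (0.70 and 0.82; adjusted p 0.0485 and 0.0482) and Pola1 at the second (1.01; adjusted p = 0.0168) with the replicate number as a block.

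Pold1, the catalytic subunit of polymerase delta, had the largest rise of the 45 genes. Its level was 4.61 and 5.15 at day 1.5, 9.34 on both arrays of day 2.5, and 9.40 and 9.37 at day 3.5. It rose by 4.46 ± 0.26 (22-fold; adjusted p = 4.73e-07), from a level near background, and its other probe set differed by 3.13. Pole2, an accessory subunit of polymerase epsilon, rose by 2.00 ± 0.58 (adjusted p = 0.0126), from 6.89 and 8.50 to 9.40 and 9.99. Its other measured probe set differed by 0.08. Pold3, an accessory subunit of polymerase delta, rose by 1.80 ± 0.28 on the probe set used, from 8.92 and 8.68 to 10.75 and 10.46 (adjusted p = 0.000258), whereas its 2 other probe sets differed by -0.20 and -0.41. At day 3.5 Pold3 stood at 9.45 and 10.06, 0.95 ± 0.28 above day 1.5 (adjusted p = 0.011), where the other probe sets differed by -1.34 and -1.30. The mean of its probe sets gave 0.40 at the first step (adjusted p = 0.16) and -0.56 over the span (adjusted p = 0.0503), so its direction rests on the probe set. Pole, the catalytic subunit of polymerase epsilon, differed by 0.64 ± 0.27 (adjusted p = 0.0655) and Pold2 by 1.34 (adjusted p = 0.101), and both were called with the replicate number as a block (0.0461 and 0.0326). Over the span Pole2 and Pold2 were 2.32 and 1.78 higher (adjusted p 0.00471 and 0.031). Pole2 ended without replicate 1 of control day 1.5 at the first step (1.19; adjusted p = 0.125) and over the span (0.0529), and without replicate 2 of control day 2.5 (0.0788). Over the span Pold2 ended without replicate 1 or 2 of control day 1.5 (0.147 and 0.0636), without replicate 1 of control day 3.5 (0.193) and with no filter on low levels (0.0931), and Pold3 without replicate 2 of control day 1.5 (0.0562) or replicate 2 of control day 3.5 (0.104). Pold3 was called lower at the second step with the replicate number as a block (-0.85; adjusted p = 0.0339).

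In the clamp loader, replication factor C, 4 of 5 subunits rose from day 1.5 to day 2.5. Rfc4 stood at 7.17 and 6.71, then 10.51 and 10.84, then 10.87 and 11.75, and rose by 3.73 ± 0.40 at the first step (13.3-fold; adjusted p = 2.26e-05). Rfc3 stood at 4.15 and 3.44, then 7.39 and 6.60, then 7.53 and 7.18. It rose by 3.20 ± 0.34 (adjusted p = 2.31e-05), or by at least 2.00 from a level of 5, since both day 1.5 arrays were below it. The other probe sets of Rfc4 and Rfc3 differed by 3.61 and 2.09. Rfc2 rose by 1.23 ± 0.34 and again by 1.17 ± 0.34 at the second step (adjusted p 0.00951 and 0.0316), and it went from 6.04 and 5.74 to 8.57 and 8.03 at day 3.5. Rfc1, the large subunit, rose by 0.78 ± 0.27 (adjusted p = 0.0318), but its other probe sets differed by -0.77 and 0.27. Rfc5 differed by -0.78 (adjusted p = 0.0914) and was called only with the replicate number as a block (adjusted p = 0.0178). Pcna, the clamp itself, did not pass; it lay between 11.30 and 12.54 on the control arrays and was called at the second step with the replicate number as a block (0.63; adjusted p = 0.0369). The calls of Rfc3 and Rfc4 held with any 1 array left out. Rfc1 ended without replicate 1 of control day 1.5 or replicate 1 or 2 of control day 2.5 (adjusted p 0.169, 0.0780 and 0.130) and with the mean of its probe sets (0.09; adjusted p = 0.718). Rfc2 ended at the first step without replicate 2 of control day 1.5 (0.0586) or replicate 1 of control day 2.5 (0.0899), and at the second without replicate 2 of control day 2.5 (0.202), without replicate 1 of control day 3.5 (0.225) or with no filter on low levels (0.0539).

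Among the single-strand binding proteins, which coat unwound DNA, Rpa1 and Rpa3 rose at the second step. Rpa1 stood at 9.84 and 10.46, then 10.85 and 10.63, then 12.02 and 12.09, and rose by 1.31 ± 0.31 from day 2.5 to day 3.5 (adjusted p = 0.0135). Rpa3 stood at 6.85 and 7.60, then 6.82 and 7.25, then 8.64 and 8.48, and rose by 1.52 ± 0.35 (adjusted p = 0.0121). Rpa2 did not pass and lay between 9.95 and 10.79. The call of Rpa1 ended without replicate 2 of control day 2.5 or replicate 1 or 2 of control day 3.5 (adjusted p 0.0825, 0.0769 and 0.0582), and that of Rpa3 without replicate 1 of control day 2.5 or replicate 1 of control day 3.5 (0.0841 and 0.0895). Over the span Rpa1 and Rpa3 were 1.91 and 1.33 higher (adjusted p 0.000295 and 0.00633), and Rpa3 ended there without replicate 1 of control day 1.5 (0.0569).

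Lig1, the ligase that joins the pieces of the lagging strand, rose at both steps. It stood at 5.61 and 4.99, then 8.06 and 8.15, then 9.68 and 8.84, which is a rise of 2.81 ± 0.35 (6.99-fold; adjusted p = 6.06e-05) followed by 1.15 ± 0.35 (adjusted p = 0.0379). The first rise held with any 1 array left out. The second ended without replicate 1 or 2 of control day 2.5 or replicate 1 of control day 3.5 (adjusted p 0.144, 0.118 and 0.288, the last with a rise of 0.73), when arrays were centred (0.0627) and with no filter on low levels (0.0668). Fen1, the nuclease that trims those pieces, differed by 0.62 ± 0.27 at the first step (adjusted p = 0.072; 0.0234 with the replicate number as a block). Over the span Fen1 was 0.97 higher (adjusted p = 0.00841), which ended without replicate 2 of control day 3.5 (0.0625).

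The genes of nucleotide supply all lay higher at day 2.5 than at day 1.5, and 3 of 4 passed. Rrm1, the large subunit of ribonucleotide reductase, went from 7.82 and 7.38 to 9.49 and 9.05 and then to 10.51 and 10.07, a first rise of 1.67 ± 0.36 (adjusted p = 0.00235). The second step of Rrm1 was 1.02 ± 0.36 (adjusted p = 0.0662; 0.00872 with the replicate number as a block). Rrm2, the small subunit, rose by 0.78 ± 0.23 (adjusted p = 0.0144), from 11.92 and 11.87 to 12.53 and 12.82, and its other probe sets differed by 1.12 and 1.40. Tyms, which makes thymidylate, passed a level of 5 on both arrays at day 2.5 alone among the control stages (3.58 and 3.95, then 5.51 and 6.30, then 4.09 and 5.06). It rose by 2.14 ± 0.37 (adjusted p = 0.000594), or by at least 0.91 from a level of 5, and fell by 1.33 ± 0.37 at the second step (adjusted p = 0.0283). Its 3 other probe sets stayed below a level of 5 on all arrays. Tk1, thymidine kinase, did not pass (0.64; adjusted p = 0.359); replicate 1 lay above replicate 2 in all 6 groups, and with the replicate number as a block it was called (adjusted p = 0.0395, and 0.0401 over the span). Rrm2 ended without replicate 2 of control day 2.5 (adjusted p = 0.106). The later fall of Tyms ended without replicate 2 of control day 2.5 (adjusted p = 0.189), without replicate 1 of control day 3.5 (-0.84; adjusted p = 0.238), and with no filter on low levels (0.0585).

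**Figure D3:**
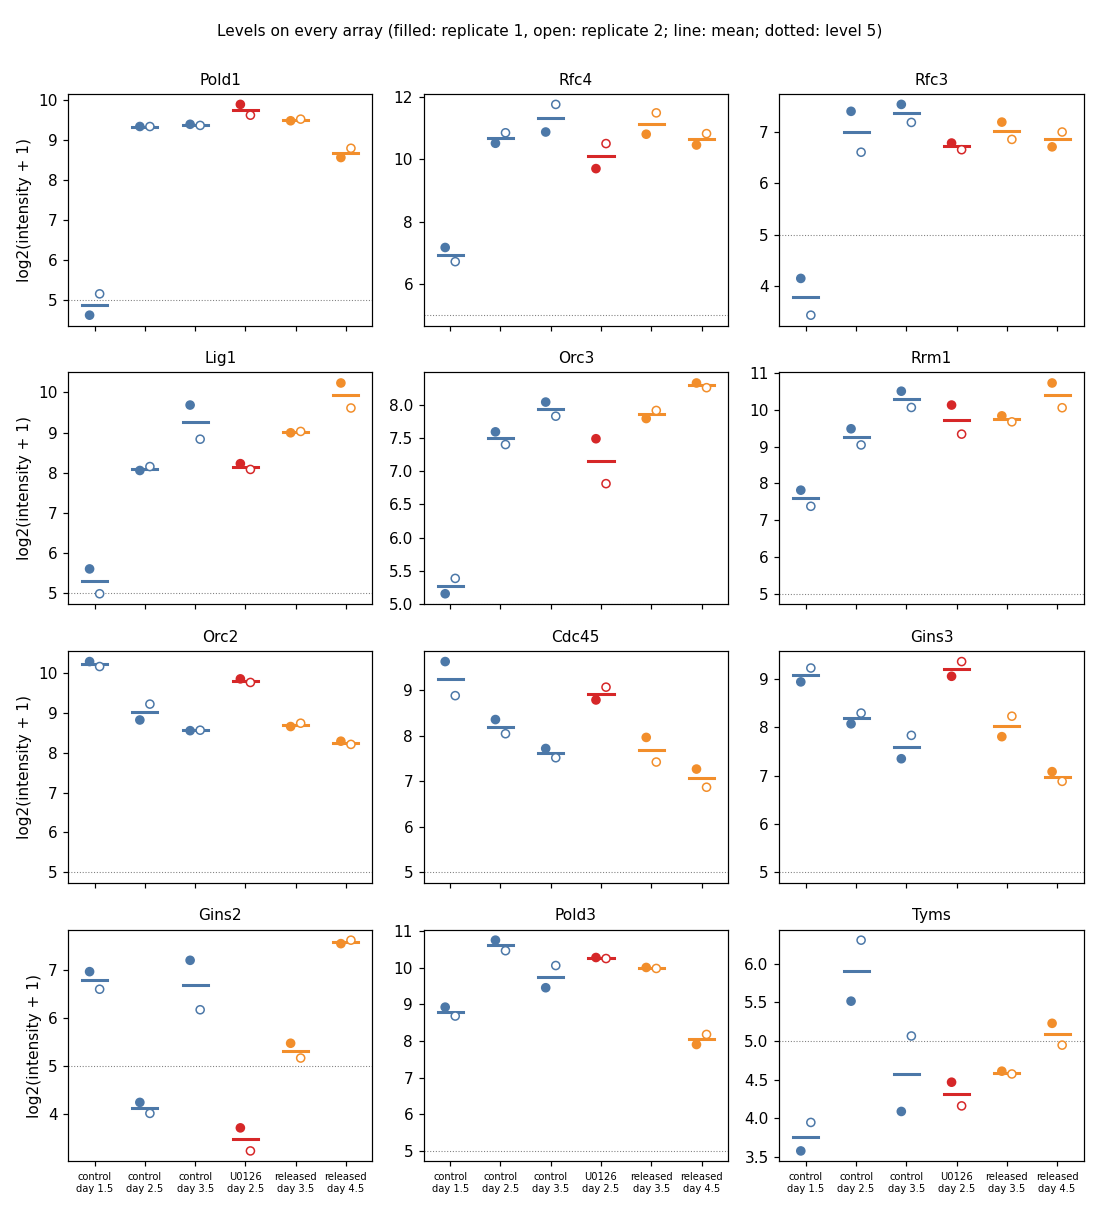
Levels of 12 members on every array (vertical axis, log2(intensity + 1), with its own range in each panel) in the 6 groups (horizontal axis); filled points are replicate 1, open points replicate 2, bars the group means and the dotted line the level of 5. Pold1, Rfc4, Rfc3, Lig1, Orc3 and Rrm1 are lowest at day 1.5, whereas Orc2, Cdc45 and Gins3 are highest at day 1.5 or under U0126.

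At the second step the count of 7 became 15 with the replicate number as a block, and lay between 1 and 6 with 1 array left out: 4 without replicate 1 of control day 2.5, 2 without replicate 2 of it, 1 without replicate 1 of control day 3.5 and 6 without replicate 2 of it. Of all genes called at this step 61.7% rose; with arrays centred on their medians, which moved the median difference of all tested genes from 0.09 to -0.12, the share was 45.4%. The rise of Gins2 was called in every one of these refits. How many of all tested genes were called with the block is not given here.

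The comparison at day 2.5 asked whether these genes differ between embryos arrested by U0126 and controls of the same day. Gins3 was higher, Tyms was lower, and 43 of the 45 did not pass. Over all tested genes 9.21% were higher and 4.72% lower under U0126. The median difference of the 45 was 0.05, against 0.11 over all tested genes. Gins3 stood at 9.05 and 9.36 under U0126, against 8.07 and 8.29 in day 2.5 controls, a difference of 1.02 ± 0.28 (2.03-fold; adjusted p = 0.0385), and its other probe set differed by 0.80. Its levels under U0126 overlapped those of day 1.5 (8.94 and 9.23). Tyms stood at 4.47 and 4.16 under U0126, against 5.51 and 6.30, a difference of -1.59 ± 0.37 (adjusted p = 0.0194). As both treated arrays were under a level of 5, the difference was at least -0.91 measured from that level. Of the genes that did not pass, Rfc1 and Orc4 differed by 0.23 and -0.07 on the sets used. Other probe sets of Rfc1 differed by 1.62 and 0.26, and those of Orc4 by -0.17, 0.84 and -1.07. These other sets were not tested singly, so the results of both genes hold for the sets used.

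Neither call held in every refit. Gins3 ended without replicate 1 or 2 of control day 2.5 or replicate 1 or 2 of U0126 day 2.5 (adjusted p 0.191, 0.101, 0.0675 and 0.129), when arrays were centred (0.82; adjusted p = 0.131) or quantile-normalized (0.0950), and with the mean of its probe sets (0.0511). Tyms ended without replicate 2 of control day 2.5 (0.133) or replicate 2 of U0126 day 2.5 (0.0715). With the replicate number as a block the count was 7 in place of 2, and the share of all tested genes called in that fit is not given here. Then Orc2 (0.79; adjusted p = 0.0302) and Rpa1 (0.95; 0.0418) were also higher, and Mcm4 (-0.84; 0.023), Mcm10 (-0.74; 0.0416) and Rrm2 (-0.69; 0.0397) lower. Centring moved the share of higher genes among all called from 66.1% to 47.0%, and with it 0 of the 45 were higher and 3 lower. Of the 9930 tested genes 1177 were called with centring, 553 of them higher. The summed level of the blood and immune markers was 7.02 and 7.61 under U0126, against 5.90 and 6.04 in day 2.5 controls, with Cd68 alone above a level of 5. That of the oviduct markers was 6.58 and 7.06 against 6.08 and 6.53, with Ovgp1 at a mean of 5.60 under U0126, and that of the embryo markers was 10.51 and 10.91 against 12.11 and 12.80. For all 3 lists the arrays did not overlap, and their part in these differences was not tested.

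**Figure D4:**
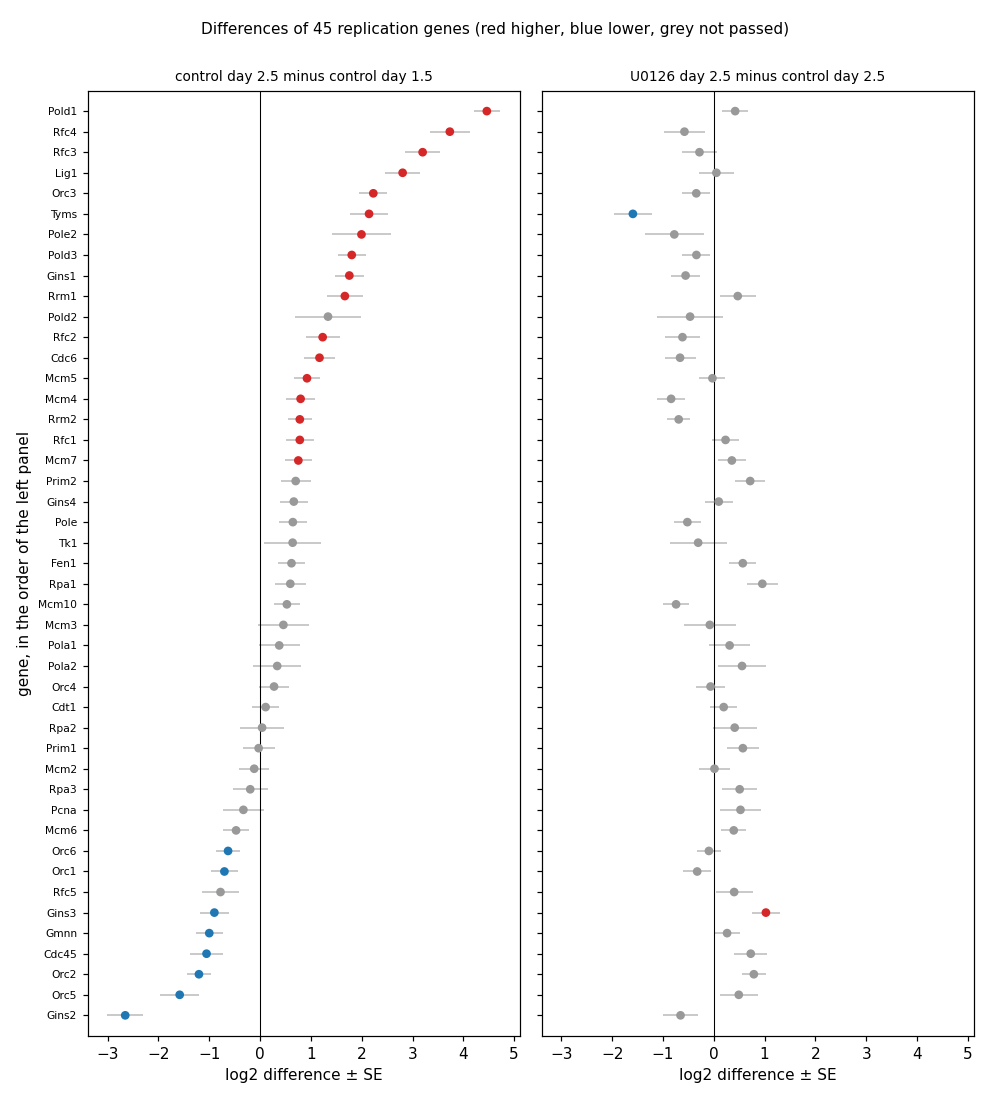
Log2 differences with standard errors (horizontal axis) of the 45 genes from day 1.5 to day 2.5 in controls (left) and between U0126-treated and control embryos of day 2.5 (right), in the order of the left panel; red is higher, blue lower and grey not passed. The left panel spans -2.65 to 4.46, and the right -1.59 to 1.02, with Gins3 and Tyms alone coloured.

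The genes with the largest rises at the first control step did not pass between arrested embryos and controls of day 2.5. Pold1 stood at 9.90 and 9.63 under U0126, Rfc4 at 9.70 and 10.50, Rfc3 at 6.78 and 6.65, and Lig1 at 8.23 and 8.08. Against day 1.5 these were differences of 4.88 ± 0.26 (29.5-fold; adjusted p = 6.37e-07), 3.16 ± 0.40 (0.000106), 2.92 ± 0.34 (6.59e-05; 1.71 or more above a level of 5) and 2.86 ± 0.35 (8.17e-05). In all, 15 of the 45 genes were higher and 5 lower under U0126 than at day 1.5, where 28.1% of all tested genes were higher and 22% lower. The lower ones were Gins2, Orc1, Orc5, Orc6 and geminin. Gins2 stood at 3.71 and 3.23, which is 3.31 ± 0.35 lower (-3.31; adjusted p = 3.32e-05), or at least 1.78 (-1.78) to a level of 5. This comparison and the first control step share the day 1.5 arrays.

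Some members lay closer to day 1.5 than to day 2.5 controls under U0126, though none of those given next passed. Orc2 stood at 9.85 and 9.76 under U0126, between day 1.5 (10.28 and 10.16) and day 2.5 (8.82 and 9.22), and differed from day 2.5 by 0.79 ± 0.24 (adjusted p = 0.0533). Its other probe sets differed by 0.24 and 0.67. Cdc45 stood at 8.78 and 9.06, against 8.35 and 8.04 at day 2.5 (0.73 ± 0.33; adjusted p = 0.176). Mcm4 stood at 10.18 and 10.40, against 10.32 and 10.35 at day 1.5 and 10.88 and 11.38 at day 2.5 (-0.84 ± 0.28; adjusted p = 0.0757), though its other probe set differed by -0.11. Rrm2 stood at 11.93 and 12.05, against 11.92 and 11.87 at day 1.5 and 12.53 and 12.82 at day 2.5 (-0.69 ± 0.23; adjusted p = 0.0755), and its other probe sets differed by -1.15 and -0.98. For these 4 genes, picked for lying nearer day 1.5, the arrays of U0126 and control day 2.5 did not overlap. With 2 arrays a group this is weak evidence, and the share of all tested genes without overlap is not given here.

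Calls against day 1.5 that ended with 1 array left out were as follows. Without replicate 1 of control day 1.5 these were Mcm5, Orc6, geminin, Gins4 and Rfc1 (adjusted p 0.0715, 0.0601, 0.0847, 0.0601 and 0.0651), and without replicate 2 of it Orc5, Orc6, geminin and Gins4 (0.236, 0.0529, 0.0942 and 0.150). Without replicate 1 of U0126 day 2.5 these were Mcm5, Orc6 and geminin (0.0569, 0.0607 and 0.188), and without replicate 2 of it Orc1, Orc5, Orc6 and Gins4 (0.0661, 0.186, 0.0670 and 0.179). Orc5 was lower by 1.09 ± 0.38 (-1.09) with all arrays and by 0.66 (-0.66) without replicate 2 of control day 1.5. The call of Gins4 also ended with centred arrays (0.109), that of Orc5 with no filter on low levels (0.0657), and those of Mcm5 and Pold3 with the mean of their probe sets (0.0603 and 0.86). With the replicate number as a block Pola1, Pole2 and Rfc2 were also higher (adjusted p 0.0432, 0.0103 and 0.0269).

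Replication genes outside the 45, such as checkpoint, histone supply and E2F genes, were taken from a list of 64, of which 62 were on the array and 59 were tested. From day 1.5 to day 2.5, 9 of the 59 rose and 23 fell, with a median of -0.60. Of all tested genes 28% rose and 27.4% fell, with a median of 0.09. Rnaseh2b, a subunit of the nuclease that removes ribonucleotides from DNA, rose by 4.21 ± 0.24 (adjusted p = 3.99e-07), from 4.76 and 5.14 to 9.25 and 9.06. The activator E2f1 fell by 1.69 ± 0.41 (adjusted p = 0.00511), from 8.62 and 8.20 to 6.83 and 6.61. Under U0126 11 of the 59 were higher than in day 2.5 controls and none was lower, with a median of 0.46. Of all tested genes 9.21% were higher and 4.72% lower there, with a median of 0.11. Uhrf1, which guides DNA methylation to new strands, was 2.34 ± 0.41 higher (adjusted p = 0.00626), with 8.50 and 7.34 against 5.10 and 6.06, and it had stood at 9.56 and 9.98 at day 1.5. Clspn, which carries the replication checkpoint signal, was 1.40 ± 0.24 higher (adjusted p = 0.00496), with 8.95 and 9.11 against 7.49 and 7.76. Cdc7, the kinase that fires origins, was 1.69 ± 0.40 higher (adjusted p = 0.0204), with 9.73 and 9.59 against 7.94 and 7.99. The count of 11 fell to 3 without replicate 1 of control day 2.5, to 4 without replicate 2 of it, and to 5 and 4 without replicates 1 and 2 of U0126 day 2.5. Clspn was called in all 4 refits, Uhrf1 ended without replicate 1 of control day 2.5 (0.0560), and Cdc7 ended in all 4 (0.100, 0.0820, 0.0805 and 0.0505). With centred arrays the count was 6, with quantile normalization or with the mean of probe sets 7, with the replicate number as a block 17, and with the arrays of the compared groups alone 0.

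At day 3.5, when released embryos had 8 cells, 4 of the 45 genes were higher and 5 lower than in arrested embryos, while 13.7% of all tested genes were higher and 14.5% lower. Those that rose were Gins2, Rfc2, Mcm4 and Rrm2. Gins2 went from 3.71 and 3.23 to 5.47 and 5.16, by 1.85 ± 0.35 (adjusted p = 0.00352), or by at least 0.31 from a level of 5. Rfc2 went from 6.66 and 6.35 to 8.32 and 7.75, by 1.53 ± 0.34 (adjusted p = 0.00743). Mcm4 rose by 1.06 ± 0.28 to 11.15 and 11.56 (adjusted p = 0.0181), and Rrm2 by 0.96 ± 0.23 to 12.92 and 12.97 (adjusted p = 0.0115). Those that fell were Cdc45, Gins3, Orc2, Prim1 and Mcm6. Orc2 fell by 1.11 ± 0.24 to 8.66 and 8.74 (adjusted p = 0.00673), Gins3 by 1.19 ± 0.28 to 7.81 and 8.23 (0.0109), and Cdc45 by 1.23 ± 0.33 to 7.96 and 7.42 (0.0179). Prim1, the catalytic primase, fell by 0.93 ± 0.31 to 9.64 and 9.98 (adjusted p = 0.0482), and Mcm6 by 0.77 ± 0.25 to 11.08 and 10.85 (0.042).

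The calls of Gins2 and Orc2 held with any 1 array left out. Without replicate 1 of U0126 day 2.5, Mcm4, Mcm6 and Prim1 ended (adjusted p 0.0741, 0.0864 and 0.107), and without replicate 2 of it Mcm6, Cdc45, Gins3 and Prim1 did (0.117, 0.0818, 0.0571 and 0.130). Without replicate 1 of released day 3.5, Mcm6, Gins3, Prim1, Rfc2 and Rrm2 ended (0.0868, 0.0833, 0.216, 0.0630 and 0.0523) and the count was 4, and without replicate 2 of it Mcm4, Mcm6, Cdc45, Prim1 and Rrm2 did (0.125, 0.192, 0.128, 0.0888 and 0.0646) and it was also 4. Prim1 also ended with centred arrays (0.0625), under quantile normalization (0.0578) and with no filter on low levels (0.0657), and Mcm6 and Orc2 ended with the mean of their probe sets (0.102 and 0.0648). With the replicate number as a block Rfc1 (-0.71; adjusted p = 0.0277), Rfc4 (1.04; 0.0294) and Lig1 (0.86; 0.0382) were also called. Of the 59 other replication genes 3 rose and 14 fell at this step, while 13.7% of all tested genes rose and 14.5% fell. Among the 14 was Clspn, which fell by 1.40 ± 0.24 to 7.54 and 7.71 (adjusted p = 0.00184). The summed level of the embryo markers was 14.18 and 14.44 in these released embryos, and that of the blood and immune markers 6.37 and 6.48; their part was not tested.

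Released embryos of 8 cells were also set against controls of like cell number, those of day 2.5. Rpa3 was higher, at 7.88 and 8.62 against 6.82 and 7.25 (1.22 ± 0.35; adjusted p = 0.0446), and Tyms was lower, at 4.61 and 4.57 against 5.51 and 6.30 (-1.32 ± 0.37; adjusted p = 0.0429, at least -0.91 to a level of 5). The other 43 did not pass, and 8.61% of all tested genes were higher and 4.05% lower. Rpa3 ended without replicate 1 or 2 of control day 2.5 or replicate 2 of released day 3.5 (adjusted p 0.212, 0.0987 and 0.266), and when arrays were centred (0.101) or quantile-normalized (0.0845). Tyms ended without replicate 1 or 2 of control day 2.5 or replicate 1 or 2 of released day 3.5 (0.0505, 0.263, 0.137 and 0.164) and with a pseudocount of 32 (0.0529), and both ended with no filter on low levels (0.0769 and 0.0821). The count of 2 was 6 with the replicate number as a block, which added Gins2 (1.19; adjusted p = 0.0156), Rfc2 (0.91; 0.0154), Rpa1 (0.96; 0.0423) and Lig1 (0.91; 0.0486). The levels of Gins2 in day 2.5 controls were below 5 on both arrays. How many of all tested genes were called with the block is not given here. Centring moved the share of higher genes among all called from 68.0% to 50.9%.

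Released day 3.5 embryos and controls of the same day differed in none of the 45 genes by limma's adjusted test. With the replicate number as a block none was called either. Of all tested genes 0.302% were higher and 0.0101% lower, 31 in all. The median difference of the 45 was -0.17, against -0.01 over all tested genes. The largest difference was that of Gins2, at 5.47 and 5.16 against 7.20 and 6.17 (-1.37 ± 0.35, adjusted p = 0.203). The median standard error of a difference over the tested genes was 0.35, which sets the precision that 2 arrays a group allow.

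At day 4.5, released embryos of the morula to blastocyst stage were compared with day 3.5 controls of like stage, and Pold3 was the only one of the 45 called. It stood at 7.90 and 8.18 against 9.45 and 10.06, a difference of -1.71 ± 0.28 (3.28-fold lower; adjusted p = 0.00723). Of all tested genes 3.85% were higher and 2.03% lower. The means of the 2 other Pold3 probe sets were 8.30 and 4.88 in released day 4.5 embryos and 8.93 and 5.58 in day 3.5 controls, so all 3 lay lower. The call ended without replicate 2 of control day 3.5 (adjusted p = 0.0929) or replicate 1 of released day 4.5 (0.0652), and without replicate 1 of control day 3.5 the count was 2. The summed level of the oviduct markers was 7.50 and 8.20 in released day 4.5 embryos, against 5.82 and 6.20 in day 3.5 controls. This higher sum rests on Sox17, with a mean of 7.43 in released day 4.5 embryos. The means of Ovgp1, Foxj1, Pax8, Wt1, Muc16 and Dnah5 were all below a level of 5 there. The sum hence does not show a rise of the oviduct list as a whole, and the part of Sox17 was not tested. The remaining 44 lay between -0.70 and 0.90, with Gins2 highest at 7.54 and 7.61 against 7.20 and 6.17 (adjusted p = 0.174).

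From day 3.5 to day 4.5 after release, Gins2 rose and Pold3 and Gins3 fell, while 7.37% of all tested genes rose and 6.37% fell. Gins2 went from 5.47 and 5.16 to 7.54 and 7.61, by 2.26 ± 0.35 (4.80-fold; adjusted p = 0.00324). Pold3 fell by 1.95 ± 0.28, from a mean of 9.99 to 7.90 and 8.18 (adjusted p = 0.00195). Gins3 fell by 1.04 ± 0.28 to 7.08 and 6.88 (adjusted p = 0.0363). Gins3 ended without replicate 1 or 2 of released day 3.5 or replicate 1 or 2 of released day 4.5 (adjusted p 0.0816, 0.183, 0.104 and 0.203), and the calls of Gins2 and Pold3 held. The count of 3 was 6 with the replicate number as a block, which added Pold1 (-0.83, adjusted p = 0.0356), Rpa3 (1.09, 0.0206) and Lig1 (0.91, 0.0459). How many of all tested genes were called with the block is not given here.

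Whether this last step differed from the control step from day 2.5 to day 3.5 was tested as a difference of differences. None of the 45 genes passed limma's adjusted test, and none passed with the replicate number as a block. Of all tested genes 1.02% were called higher and 1.32% lower, and centring moved the share of higher genes among them from 43.5% to 56.2%. Gins2 rose in both, by 2.26 and 2.56 with a level under 5 at the start of the control step. Tyms differed most, by 1.83 ± 0.52 (adjusted p = 0.0963), having fallen in controls by 1.33 and moved from 4.61 and 4.57 to 5.23 and 4.95 in released embryos.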

How the data were processed

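The 12 arrays held the deposited intensity of 45101 probe sets each, on a linear scale. GCRMA, a background correction with quantile normalization, is named in the submitters' processing notes, and GCOS 1.2 and GeneSpring 7.3 in the design text. What GeneSpring added was not given in the sources used here, and the absolute scale of the intensity values deposited by the authors is arbitrary. The array medians lay between 10.8 and 11.5. Probe sets were named from the platform annotation: 34958 carried 1 symbol, 932 several and 9211 none, and only the first were used.

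Levels were log2(intensity + 1), which understates changes of low genes. Genes that reached a level of 5 on 2 or more arrays entered 1 limma 3.58.1 fit (R 4.3.3) of 6 group means over all 12 arrays, with 6 residual and 4.51 prior degrees of freedom, and the script was tested on simulated data. Adjusted p-values are Benjamini-Hochberg values over 9930 genes. A called difference between 2 groups, where 1 lay below a level of 5 on both arrays, is also given as at least its distance to 5. Differences called only with the replicate block, and the difference of the 2 steps, are given without it. The number of arrays limits the precision.

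Any member could be named; arrays are printed for up to 6 members with the largest differences that passed without overlap in each comparison, and where a role is described. Other probe sets of a member were compared with the one used. The sets used for Mcm2, Mcm3, Mcm4, Mcm5, Mcm7, Gins2, Pold1, Rfc4, Fen1 and Rrm2 are of the array's s_at or x_at kinds, which can also bind related transcripts. The members, the role groups and the further lists were chosen with earlier results of these data known. Same-numbered arrays deviated together in 15 of 15 pairs of groups (r from 0.125 to 0.417), and with the text's 2 independent experiments the numbers were taken to pair the arrays, so a fit with the number as a block was an alternative. The other alternatives were median centring, quantile normalization, a pseudocount of 32, no filter, a filter at level 6, the mean of all probe sets, limma's trend with a robust prior, the arrays of the compared groups alone, and each array left out. Promoter letters came from RefSeq windows of GRCm38.p6.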

Additional observations from a re-analysis of the deposited data

Results flagged for a closer look

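Asf1b, a histone chaperone of the replication fork from the list of other replication genes, differed between released and control embryos in the last step. It rose from 7.06 and 7.07 at day 2.5 to 8.46 and 8.41 at day 3.5 in controls, and stood at 8.53 and 8.32 at day 3.5 and at 7.93 and 7.73 at day 4.5 in released embryos. In the test of the 2 steps 1.02% of all tested genes were called higher and 1.32% lower. For Asf1b the difference of the 2 steps was -1.97 ± 0.34 by limma's adjusted test (adjusted p = 0.0181), the only one called among the 59 tested. The call ended in each of the 8 refits without 1 array: without replicate 1 or 2 of control day 2.5 (adjusted p 0.0588 and 0.0679), of control day 3.5 (0.0549 and 0.0657), of released day 3.5 (0.0714 and 0.0514) or of released day 4.5 (0.0539 and 0.0918). The difference lay between -2.07 and -1.86 in these refits. No group had the 4 arrays needed to look for single arrays that stand apart.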

How the results depend on the processing

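Over the 9 settings other than leaving out an array, the counts of called members in the first control step, over the span, between released day 3.5 or day 4.5 and control day 3.5 embryos, and in the test of the last step stayed within 1.5 times the count above. From day 2.5 to day 3.5 in controls the 7 calls became 11 with a pseudocount of 32, 12 with limma's trend and 4 with the compared arrays alone, and between 1 and 6 with 1 array left out. Under U0126 against day 2.5 controls the 2 calls became 1 with quantile normalization, 7 with a pseudocount of 32, 4 with no filter, 6 with the trend, 0 with the compared arrays alone, and 0 to 1 with 1 array left out. Against day 1.5 the 20 calls became 11 with the compared arrays alone. In the first step after release the 9 calls became 2 with the compared arrays alone and 4 to 8 with 1 array left out. Released day 3.5 against control day 2.5 embryos had 1 call in place of 2 with centring or quantile normalization, 0 with no filter or the compared arrays alone, 4 with the mean of probe sets, and 0 to 1 with 1 array left out. Released day 4.5 against control day 3.5 had 0 to 2 with 1 array left out, and the last step after release 5 in place of 3 with a pseudocount of 32. The compared arrays alone leave fewer degrees of freedom, and for the other settings the cause was not tested. With the mean of probe sets Orc4 and Pold3 turned to -0.60 and -0.56 between day 1.5 and day 3.5, since their probe sets disagree. Of the 97 single calls, 9 ended with centring, 7 with quantile normalization, 1 with the pseudocount, 9 with no filter, 1 with the trend and 33 with the compared arrays alone. The filter at level 6 and the mean of probe sets left Tyms untested; of the other 93 calls none ended with that filter, and with the mean of probe sets 11 ended in the same direction, besides the 2 that turned and missed the threshold (adjusted p 0.0758 and 0.0503).

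With the replicate number as a block the counts were 15 from day 2.5 to day 3.5 in controls, 7 under U0126, 6 for released day 3.5 against control day 2.5, and 6 for the last step after release. The shares of all tested genes called in that fit are not given here, so these counts have no background beside them. The block ended none of the 97 calls of members, and it changed no other call than those given with their values. Signals near a level of 5 limit Gins2, Rfc3, Tyms and the day 1.5 levels of Pold1 and Lig1.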
